A study of Drosophila melanogaster with 2 samples.

Results

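Glass occupancy was examined at 7 genes that guide photoreceptor axons to their target layers in the fly brain: CadN, Lar, caps, trn, sdk, jeb and Alk. The genes were taken as a named list, and every peak summit within the span of a gene extended by 1 kb on either side was counted for that gene. A gene with at least 1 such summit is called bound here. The 7 genes are compared with all 13945 protein-coding genes of the X, the 4th chromosome and the arms 2L, 2R, 3L and 3R. Their spans ran from 3.8 kb (trn) to 145.4 kb (Lar).

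The data are ChIP-seq peak lists for Glass, a zinc finger transcription factor that photoreceptors need in order to differentiate. The animals were whole pupae with a 24 hour age label, males and females together, of a line that carries Glass fused at its C terminus to GFP. The promoter that drives the fusion is not given in the labels. There were 2 biological replicates of this single group and no untreated or untagged group, so no comparison between conditions was possible. The free-text field of both samples calls them input, whereas the antibody field and the peak lists describe ChIP of gl, and they were read as ChIP. Because chromatin came from whole animals, a peak cannot be assigned to photoreceptors or to any other cell type, and a missing peak could mean occupancy in too few cells as well as none. Peak lists measure no expression, so the labelled tissue could not be checked against marker genes.

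In the developing eye each photoreceptor sends an axon into the optic lobe. R1 to R6 stop in the lamina, while R7 and R8 go on to different layers of the medulla. Surface proteins on the growing axon and on its target cells set where it stops. Some of these proteins bind copies of themselves, some signal through phosphatase or kinase domains, and others are secreted by the axon and read by the target neurons.

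The peaks were deposited as an optimal list of 4809 peaks, labelled as passing the authors' reproducibility threshold. Lists of 30000 entries each, which include background entries, were deposited for the pooled replicates, replicate 1 and replicate 2. Every optimal summit in the genes examined here had the same rank in the pooled list, down to rank 4806. A place in the optimal list therefore went with pooled signal at these summits. It does not by itself show that both replicates ranked a peak high. The height of a peak is the signal value deposited by the authors, which was used only to rank peaks within a list. Signal values of the optimal list ran from 127.0 to 3647.9 with a median of 200.4. The depth of sequencing behind them is unknown.

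Of the 7 genes, 4 were bound, namely CadN, caps, trn and sdk, with 9 summits between them. Lar, jeb and Alk had none. Among all protein-coding genes 23.1% were bound. Long genes are bound more often, and the count was therefore read against genes of similar span. CadN, Lar, caps and sdk belong to the 307 genes of 50 kb or more, of which 60.9% were bound, and 3 of these 4 members were. In the class from 20 to 50 kb, which holds jeb, 52.5% of genes were bound, and in that from 5 to 20 kb, which holds Alk, 39.2%. Of genes under 5 kb 16.2% were bound, and trn is one of these. For long genes the share of the members is thus close to the background, and no excess of binding over the list can be read from it. The 4 members of 50 kb or more held 8 summits, or 2.01 per 100 kb of extended span. Over all 307 genes of that class together the density was 2.96 per 100 kb. Taken singly, the members had 0.0 (Lar), 1.5 (CadN), 3.78 (caps) and 6.19 (sdk) per 100 kb. The median of the single genes of the class was 1.68 per 100 kb.

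**Figure D1:**
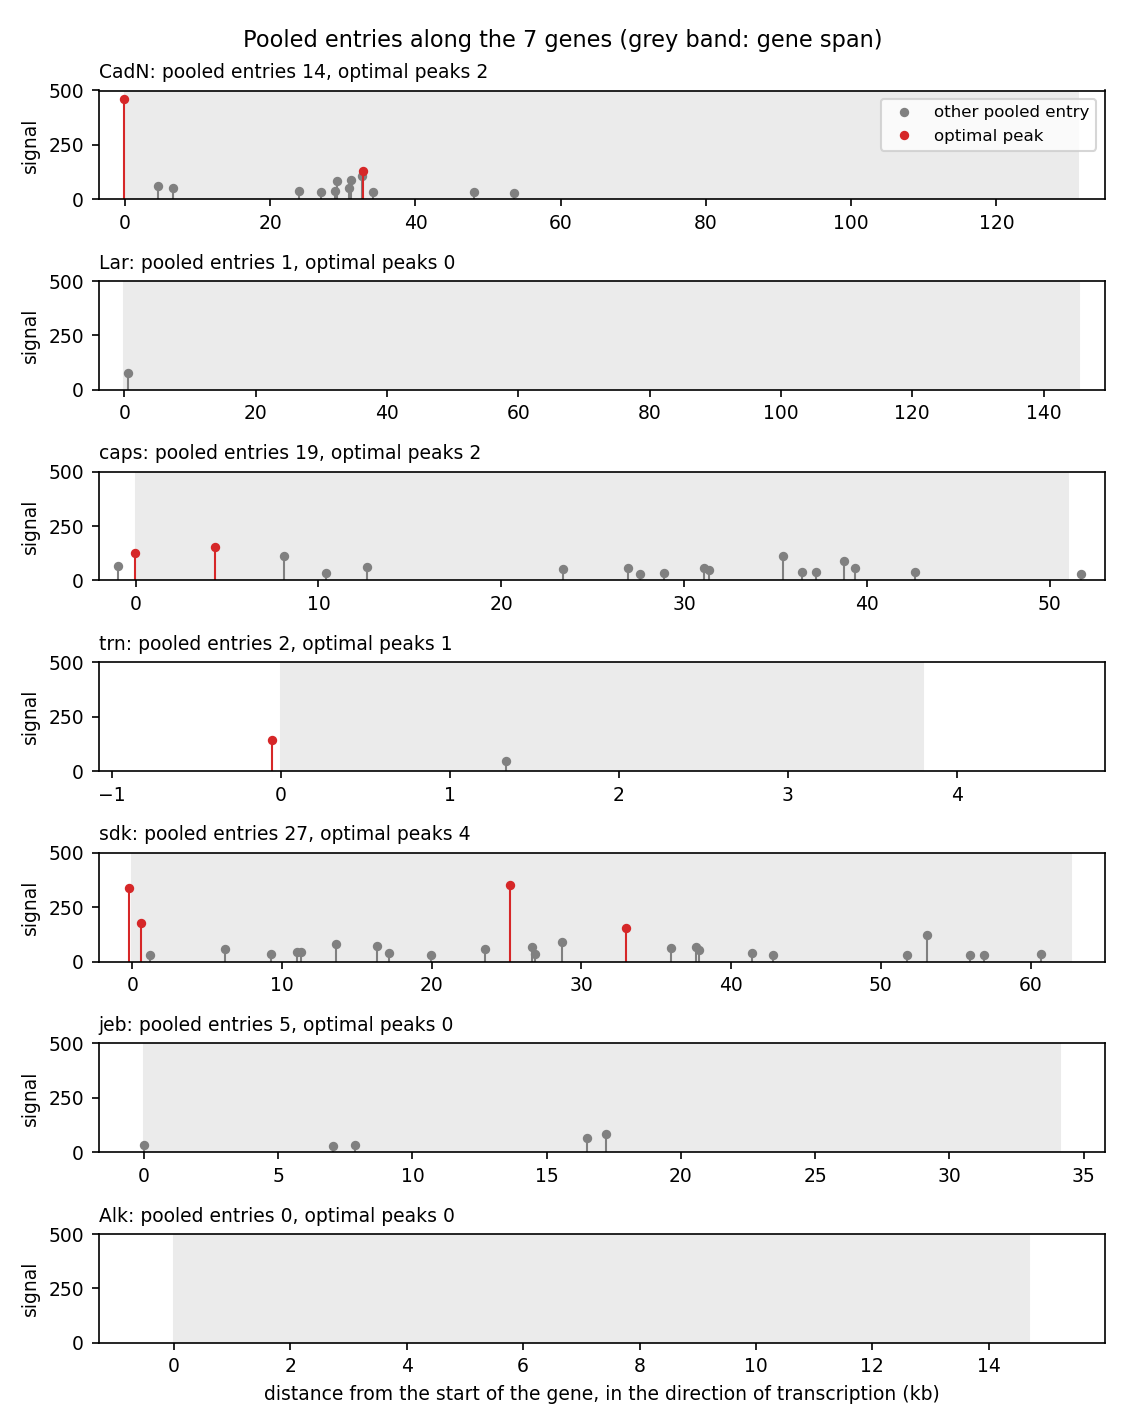
Entries of the pooled list along each gene, with the distance from the start of the gene in kb on the x axis and the authors' signal value on the y axis. Red points are optimal peaks, grey points are other pooled entries and the grey band is the gene span. CadN, caps, trn and sdk each have a red point within 200 bp upstream of the start, Lar has a single grey point near its start, and Alk has none.

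The sequence at the summits is shown for the bound genes because 4 of the 9 summits lay just upstream of a gene start. Sequences are from the NCBI copy of the dm6 assembly, read 5′ to 3′ on the strand of the gene. Each runs up to 100 bp to either side of the summit, and those upstream of a start end before the first transcribed base. Capitals mark the 21 bases centred on the summit, or 10 bases to either side of it. The first set comes from upstream of the starts of CadN (chr2L:17778351-17778551, minus strand), caps (chr3L:13228552-13228691, plus strand), trn (chr3L:13114118-13114270, plus strand) and sdk (chrX:686536-686736, plus strand).
CadN upstream: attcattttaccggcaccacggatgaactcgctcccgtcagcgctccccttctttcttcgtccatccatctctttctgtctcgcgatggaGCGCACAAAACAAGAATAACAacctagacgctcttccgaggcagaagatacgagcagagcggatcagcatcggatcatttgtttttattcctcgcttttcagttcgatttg
caps upstream: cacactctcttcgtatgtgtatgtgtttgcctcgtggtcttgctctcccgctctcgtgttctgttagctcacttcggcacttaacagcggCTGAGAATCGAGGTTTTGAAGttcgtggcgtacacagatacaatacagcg
trn upstream: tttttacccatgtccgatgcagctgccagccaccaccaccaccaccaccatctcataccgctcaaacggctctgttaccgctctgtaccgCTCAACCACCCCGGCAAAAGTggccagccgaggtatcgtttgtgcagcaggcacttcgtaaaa
sdk upstream: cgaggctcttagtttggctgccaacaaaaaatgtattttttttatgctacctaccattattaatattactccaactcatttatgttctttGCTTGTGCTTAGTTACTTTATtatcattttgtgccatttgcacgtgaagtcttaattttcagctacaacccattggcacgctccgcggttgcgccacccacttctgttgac

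The second set comes from the introns with the strongest summit of each gene away from a start, in CadN (chr2L:17745432-17745632, minus strand), caps (chr3L:13232951-13233151, plus strand) and sdk (chrX:711966-712166, plus strand).
CadN intron: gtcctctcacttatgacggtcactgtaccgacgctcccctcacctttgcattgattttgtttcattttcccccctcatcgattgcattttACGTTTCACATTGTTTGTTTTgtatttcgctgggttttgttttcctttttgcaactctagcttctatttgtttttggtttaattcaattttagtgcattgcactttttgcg
caps intron: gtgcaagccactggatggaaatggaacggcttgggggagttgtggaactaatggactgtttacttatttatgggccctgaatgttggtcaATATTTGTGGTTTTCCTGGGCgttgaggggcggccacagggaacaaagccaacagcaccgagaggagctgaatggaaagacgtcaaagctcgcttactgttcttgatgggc
sdk intron: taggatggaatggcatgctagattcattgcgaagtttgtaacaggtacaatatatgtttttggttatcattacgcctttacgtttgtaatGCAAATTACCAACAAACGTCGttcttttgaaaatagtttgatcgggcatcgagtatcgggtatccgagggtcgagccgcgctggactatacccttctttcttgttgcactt

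Within 50 bp of the 9 summits, on both strands, 9 motifs were searched, and hits were found at 2 summits of sdk only. The E-box CACGTG lay 30 bp from the summit upstream of sdk and can be read in the sequence above. It was within 50 bp of 0.915% of all optimal summits. The summit of sdk 604 bp inside the gene, whose sequence is not shown because it lies in a 5′ UTR, had GAGAGA, bound by the GAGA factor, together with the overlapping AGAGAG, and TGACTC, an AP-1 motif. These were near 7.88%, 9.63% and 2.89% of all optimal summits. CAGGTA (1.95% of all optimal summits), TATCGA (3.56%), TAATTA (5.93%), AGATAA (6.53%) and CAAAGTCC (1.95%) were at none of the 9. With 9 windows and shares this low, a motif that was not found carries no information. No recognition sequence of Glass itself was among the motifs searched.

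CadN encodes N-cadherin, a cell adhesion protein that binds copies of itself and that photoreceptor axons need to choose their targets. The gene (FBgn0015609) lies on 2L from 17647053 to 17778340 on the minus strand. It held the highest of the 9 summits, at 17778451, 111 bp upstream of the outer start. Its signal value was 461.0, rank 568 of 4809, higher than 88.2% of the optimal peaks. The replicates ranked it 777 and 440 of 30000. This start is used by 1 of the 12 annotated transcripts, and the other 11 start at 17752346, inside the gene. The other CadN summit, at 17745532 in an intron, was 6814 bp from the inner start. Its signal value, 130.0, put it at rank 4645, near the lower end of the optimal list. It was among the 4809 strongest entries of replicate 1 (rank 4170) and not of replicate 2 (rank 9813). Of the 14 pooled entries in CadN, 9 lay within 10 kb of the inner start, with signal values up to the 130.0 of that summit, and the far part of the gene, beyond 53606 bp from the outer start, held none.

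Sdk is sidekick, an immunoglobulin superfamily adhesion protein that also binds copies of itself and acts in ommatidial patterning and in the lamina. The gene sdk (FBgn0021764, X 686834 to 749496, plus strand) had the most summits of the 7, with 4 in the optimal list. The highest lay in an intron at 712066, 25232 bp from the start shared by all 9 transcripts, with a signal value of 354.6 and rank 945. It was the most evenly ranked of the sdk summits, with rank 966 in replicate 1 and 1057 in replicate 2. The summit at 686636, 198 bp upstream of the start, had a signal value of 337.0 and ranks of 766 and 1798. The third, at 687438, lay 802 bp from it, in a 5′ UTR that 1 of the 9 transcripts contains, with a signal value of 179.4 and ranks of 3076 and 2500. The fourth, at 719817 in an intron, had 153.8, and its ranks were 4807 and 2889. All 4 were thus among the 4809 strongest entries of both replicates, the fourth by a margin of only 2 ranks in replicate 1. Just outside the optimal list, an intronic entry at 739931 had a pooled signal value of 120.5 (rank 5216). This entry ranked 3876 in replicate 1 and 4178 in replicate 2, among the 4809 strongest of both. Its −log10 q value was 4.10, the maximum among pooled entries and the value that every optimal peak shares. In all, 6290 of the 30000 pooled entries had this maximum.

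Caps and trn encode capricious and tartan, related transmembrane proteins with leucine-rich repeats; capricious is known for directing R8 axons to their layer of the medulla. Both genes are on 3L on the plus strand, and both had a summit at the single annotated start. For trn (FBgn0010452, 13114271 to 13118077) the summit lay at 13114218, 53 bp upstream, with a signal value of 143.3 and rank 4043. It ranked 5415 in replicate 1, outside the 4809 strongest, and 3189 in replicate 2. For caps (FBgn0023095, 13228692 to 13279642) it lay at 13228652, 40 bp upstream, with a signal value of 127.0. That is rank 4806 of 4809, almost at the end of the list. Among the optimal summits of the members, the replicates differed most in rank at this one, with 11887 in replicate 1 and 2672 in replicate 2. The rank of one was 4.45 times that of the other, and 15.5% of the 4680 optimal peaks that both replicate lists contain had a ratio of 4 or more. The stronger caps summit, at 13233051 in an intron 4359 bp from the start, had a signal value of 153.9 and nearly equal ranks, 4017 and 3804. Intronic entries of caps just below the optimal list, at 13264110 (pooled signal value 114.6, rank 5611) and 13236810 (113.1, rank 5715), had that maximal −log10 q value too. The first of these ranked 3609 in replicate 1 and 24989 in replicate 2, the second 8929 and 4941.

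Lar encodes a receptor tyrosine phosphatase that holds R7 axons in their target layer and acts at synapses. The gene (FBgn0000464, 2L 19586623 to 19732069, plus strand) is the longest of the 7, and had no optimal summit. Its only pooled entry lay in an intron at 19587179, 47 bp from the second of its 4 annotated starts. The pooled signal value was 76.8 (rank 9655), and the entry was found within 5 bp in both replicates, at ranks 12496 and 14063. Replicate 2 had 2 further entries, at ranks 26634 and 29479. The density of pooled entries in Lar was 0.678 per 100 kb. Among the 307 genes of 50 kb or more the median was 16.6 per 100 kb, and 82.1% had a higher density than Lar, although 53 had no entry at all. Annotated transposons covered 21.3% of the extended span of Lar, against at most 4.59% in the other members. Over the 116 kb outside them the density was 0.862 per 100 kb. The part of the transposons in this low density was not tested. The other long members had 10.5 per 100 kb (CadN), 35.9 (caps) and 41.8 (sdk), and 57.3%, 29.6% and 20.2% of the long genes had a higher density than these.

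**Figure D2:**
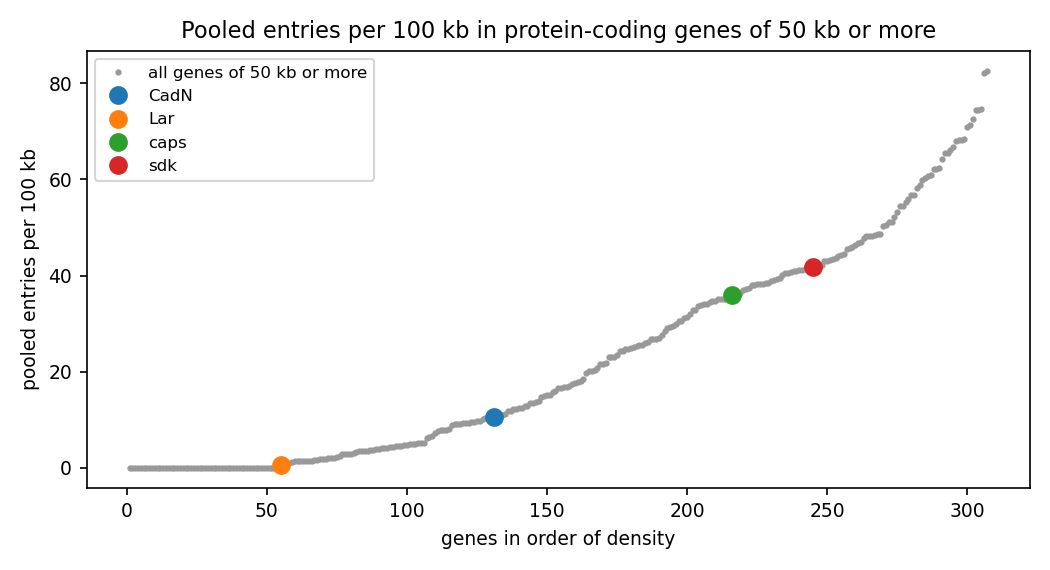
Pooled entries per 100 kb of extended span (y axis) for the 307 protein-coding genes of 50 kb or more, placed in order of density (x axis). Grey points are genes and coloured points are the members CadN, Lar, caps and sdk. Lar, at 0.678, sits next to the 53 genes with no entry, and sdk, at 41.8, lies in the upper part.

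Jeb and Alk form a ligand and receptor pair: jelly belly is secreted by photoreceptor axons, and Alk, anaplastic lymphoma kinase, is a receptor tyrosine kinase on the target neurons. Neither gene was bound. The gene jeb (FBgn0086677, 2R 12085194 to 12119340, minus strand) had 5 pooled entries, all outside the optimal list. The strongest, in an intron at 12102125, had a pooled signal value of 84.8 and rank 8483, with ranks 7370 and 15076 in the replicates. A second intronic entry, at 12102852, had 64.7 and ranks of 12668 and 12520. At the outer start of jeb, an entry 12 bp inside the gene had rank 26101 in the pooled list and no match within 200 bp in replicate 1. Alk (FBgn0040505, 2R 16625293 to 16640011, minus strand) had no pooled entry and none in replicate 2. Replicate 1 had 2 entries, 701 bp upstream of the outer start (signal value 42.5, rank 9925) and 460 bp inside it (19.1, rank 24490). The first of these was closer to a start of the gene gprs, at 531 bp.

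The positions of the summits relative to the gene starts were set beside those over all genes. All 4 bound members had an optimal summit within 200 bp upstream of their first annotated start, at distances of 111, 40, 53 and 198 bp, and no start of another protein-coding gene lay within 20 kb of these summits. For CadN this is the start of 1 of 12 transcripts, and the start of the other 11 had no optimal summit within 1 kb. Across the genome 17.0% of genes had an optimal summit within 1 kb of an own start, and so did 73.7% of the 3224 bound genes. By span, the share was 59.9% of the 187 bound genes of 50 kb or more, the class of CadN, caps and sdk, and 79.2% of the bound genes under 5 kb, the class of trn. These shares are for 1 kb to either side of any own start, and no share of all genes at 200 bp upstream is given here. With 4 genes no difference from these shares can be read. Of the 9 summits, 5 (55.6%) lay within 1 kb of a start of their gene, against 53.0% of all pairs of gene and summit. The share differed between the replicates taken alone: it was 55.6% in the strongest entries of replicate 2 and 33.3% in those of replicate 1. Each of these shares rests on 9 summits. Those at the starts of caps and trn were outside the 4809 strongest of replicate 1, trn at rank 5415. The other 4 optimal summits lay in introns. The 9 summits were lower than most optimal peaks, with a median signal value of 153.9 against 200.4, and 3 of them were above the median of the list. The median percentile of their signal values was 24.6 in the optimal list. Summits of the members among the strongest entries of replicate 1 alone had a median percentile of 25.0, and those of replicate 2 alone 44.4, near the middle of that list.

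The replicates were compared at the 9 summits. All 9 had an entry within 200 bp in both replicate lists, as did 97.3% of all optimal peaks. Among the 4809 strongest entries of each replicate, 6 of 9 (66.7%) were found in both, against 63.3% of all optimal peaks. The 3 that were not were the intronic CadN summit, at rank 9813 in replicate 2, and the summits at the starts of caps and trn. In replicate 1 the caps summit ranked 11887 and the trn summit 5415, the latter with the maximal −log10 q value of that list, 4.11. The median ratio of the ranks was 1.7, against 1.88 over all optimal peaks that both lists contain. Of the 9 summits, 6 ranked higher in replicate 2, and no share of all optimal peaks is given beside this count. Taking the 4809 strongest entries of each replicate alone, replicate 1 bound CadN, caps and sdk (3 of 7, against 22.8% of all genes), and replicate 2 bound trn besides (4 of 7, against 23.1%). Any entry at all was found in 6 members in the pooled list (62.0% of all genes), 7 in replicate 1 (61.2%) and 6 in replicate 2 (64.5%). With a single group of 2 replicates no test of these differences was made.

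**Figure D3:**
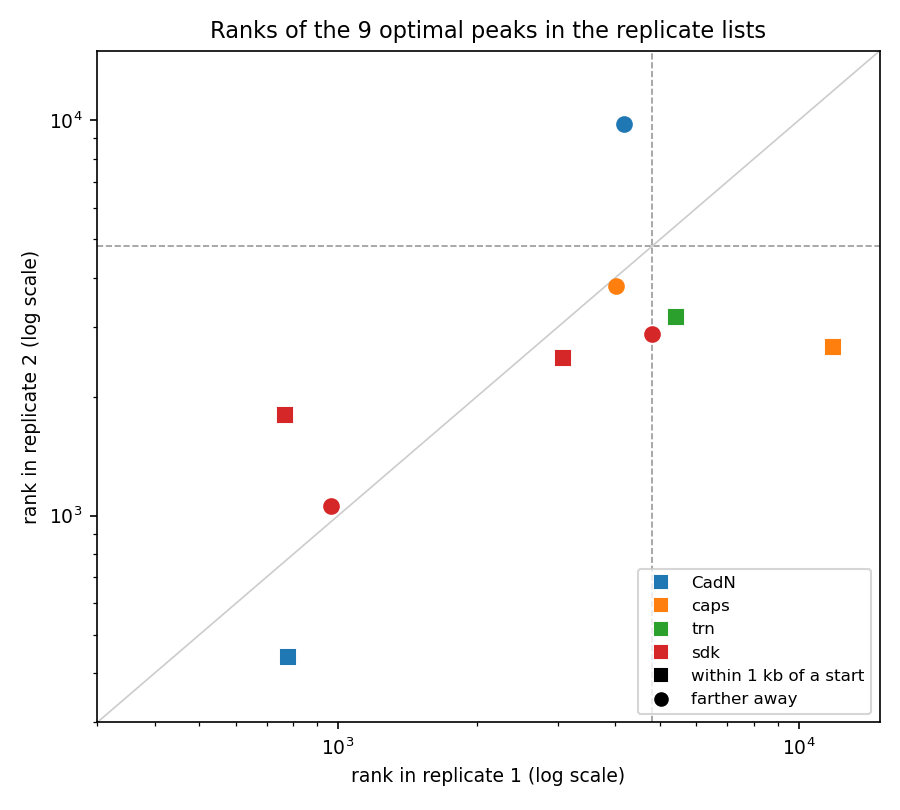
Rank of each of the 9 optimal summits in replicate 1 (x axis) and replicate 2 (y axis), both on log scales, where low ranks are strong peaks. Colours give the gene, squares lie within 1 kb of a start of the gene and circles farther away. Dashed lines mark rank 4809, the diagonal marks equal ranks, and the 6 summits below and left of the dashed lines are within the 4809 strongest of both replicates.

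Other genes known for photoreceptor axon targeting were counted in the same way. Of 44 such genes, 27 (61.4%) were bound, with 91 summits. Read by length, 8 of 10 genes of 50 kb or more were bound, 11 of 15 from 20 to 50 kb, 8 of 18 from 5 to 20 kb and 0 of 1 under 5 kb. The matching shares of all genes are the 60.9%, 52.5%, 39.2% and 16.2% given above. The list was chosen with earlier results of these data known, and its counts were not tested. The strongest summits of its bound genes had a median signal value of 290.1. Of the 44 genes, 24 had a summit among the strongest entries of both replicates. Neither value has a match over all genes of similar span beside it, so neither can be read as high or low.

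Of the 8 genes of that list with the strongest summits, 7 had that summit in an intron. InR, the insulin receptor, had 9 summits, the strongest with a signal value of 1188.6 (rank 63). A nuclear protein needed for R1 to R6 to stop in the lamina is encoded by sbb, which had 25 summits, the strongest at 735.7. The integrin subunit genes mew and if had strongest summits of 587.6 and 474.8, the latter just beyond the end of if. Ten-a, a teneurin, reached 483.8, Sema1a, a transmembrane semaphorin, 466.6, trio 440.2, and jbug, a filamin, 425.1. Each of these 8 genes had summits among the 4809 strongest of both replicates. CadN, at 461.0, would stand between Sema1a and trio in this order, and the other bound members below all 8. Among the 17 genes that were not bound were Ptp69D, another receptor tyrosine phosphatase of photoreceptor axons, Liprin-alpha, a partner of Lar, gogo, which acts in R8, and CadN2. Of the 27 bound genes 14 had a summit within 1 kb of an own start, as did all 4 bound members and 73.7% of all bound protein-coding genes. These groups were not matched for span, and no difference between them was tested.

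**Figure D4:**
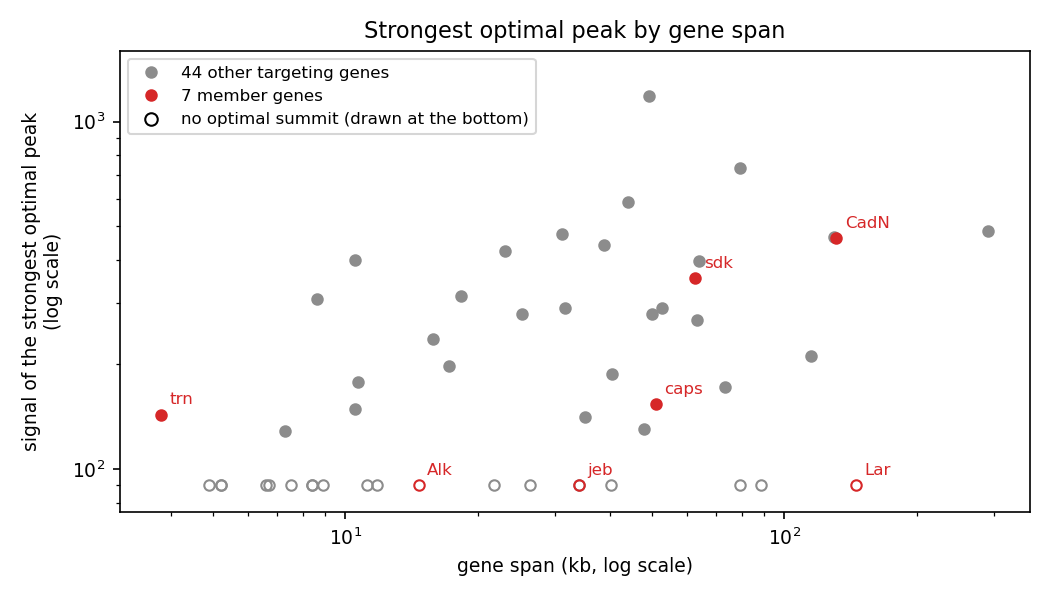
Signal value of the strongest optimal peak (y axis, log scale) against the span of the gene in kb (x axis, log scale) for the 7 members in red and 44 other targeting genes in grey. Open circles at the bottom are genes with no optimal summit. Lar, the longest member at 145.4 kb, is among the open circles, while CadN at 131.3 kb reaches 461.0.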

How the data were processed

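Per the labels, chromatin of whole pupae was sonicated to between 200 and 800 bp, and Glass was mapped by ChIP-seq in 2 biological replicates. The text files deposited with the lists say that the replicate and pooled lists were made on dm6 from the replicate alignments and a control, and that the optimal list was derived from these lists. The signal value and the −log10 q value of each peak are the authors', as deposited; their scale is not stated, and the aligner and peak caller are not given in the sources used here. Depth is unknown, so no interval for read counting is given.

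Summits were placed 1-based and counted within gene spans of Ensembl release 115 (BDGP6.54) extended by 1 kb; all peak coordinates lay within the arms of the reference. Replicate summits within 200 bp were matched. A TSS is any annotated transcript start. Counting was checked on planted summits (python 3.11.15, pandas 2.3.3, numpy 2.4.6). In the list of 44 other genes, Syd1 was read as RhoGAP100F. All 7 members, each of their optimal summits, the 8 other genes with the strongest summits and up to 5 more were named, and up to 3 summits of each gene were considered for sequence. The members and lists were chosen with earlier results of these data known. No test was made: there is no second group to compare, and shares are given as descriptions beside those of all genes.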

Additional observations from a re-analysis of the deposited data

How the results depend on the processing

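Alternatives were spans without extension or extended by 5 kb, the 2404 strongest optimal peaks, overlap by the peak interval, other distances, and each replicate alone. The number of bound members was 2 among the stronger peaks (CadN and sdk) and 3 to 5 elsewhere, and the number of the 44 other genes from 19 to 31. For replicates 1 and 2 alone, 22.8% and 23.1% of all protein-coding genes were bound. No share of all genes is given for the other alternatives, so their counts cannot be read as high, low or stable. Without extension trn was lost and the summits fell to 5, since those upstream of the starts are outside the spans; among the stronger peaks 3 remained. Per 100 kb over all 7 genes, 1.97 became 1.13 and 0.656, and 2.34 with 5 kb. The value beside 1.97 for all protein-coding genes, of any length, was 4.45 pairs of gene and summit per 100 kb of extended span. No such value is given for the other settings. The share of summits in both replicates was 100% with all entries counted. The share near starts ranged from 33.3% to 55.6% over the replicates alone. The median percentile of the member signal values, 24.6 in the optimal list, was 60.7 within the stronger peaks and 25.0 to 44.4 without a replicate; the cause was not tested. No paired analysis was possible because there is 1 group.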

Other observations

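The neighbourhoods of the members held further values. Between trn and caps, which lie 110.6 kb apart with 2 protein-coding genes between them, there were 3 optimal summits and 44 pooled entries outside both extended spans. One of these optimal summits lay 1581 bp upstream of caps (signal value 134.1, rank 4432). On the other side of trn, 4513 bp upstream of its start, another had a signal value of 166.3 (rank 3242). Upstream of Lar the nearest optimal summit, at 2495 bp from its start (161.1, rank 3386), was 107 bp from the start of CG10366. CadN2, the neighbouring cadherin gene 8630 bp from CadN, had no entry in the pooled list or in either replicate list over 88.3 kb. CadN had 14, 12 and 15. Of the 307 genes of 50 kb or more, 53 had no pooled entry, and 47 had none in replicate 1 and 47 none in replicate 2. The neighbourhoods were looked at after the values of the members were seen, and nothing was tested.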
